A study of Mus musculus with 9 samples.

Results

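The striatum of mice lacking cGAS (cGAS KO) was compared with that of wild-type mice (WT) across all genes. The libraries titled as cGAS knockouts 1 to 3 and wild types 1 to 3 were chosen by those titles, 6 of the 9 libraries of the series. The other 3 are from mice lacking STING (STING KO) and appear below only where their values help to place a cGAS KO value. All mice were on a C57BL/6J background, and both knockouts were made with CRISPR-Cas9. The brains were taken after ischemic stroke, per the series' design text, so the stroke is shared by the knockouts and their controls. Polyadenylated RNA was sequenced, and the values used are read counts per gene. The edited exon, the number of founder lines, the age of the mice and the time after stroke are unstated in the labels, and uninjured animals were not analysed here. The labels do not say that the libraries are from separate animals, so a p-value here speaks only to how much these libraries vary. Whole striatum holds many cell types, and fewer cells of a type cannot be told apart from less RNA per cell.

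cGAS is an enzyme that binds double-stranded DNA in the cytosol and then makes the cyclic dinucleotide cGAMP. cGAMP binds STING on the endoplasmic reticulum, and STING recruits the kinase TBK1, which activates the transcription factor IRF3 and with it type I interferon. In the brain this pathway is best known in microglia, where DNA from damaged cells or mitochondria can switch it on. The striatum lies deep in the forebrain and consists mostly of spiny projection neurons, which carry either the dopamine receptor Drd1 or Drd2.

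The libraries held 14129021 to 21286775 counts each, for 54532 gene IDs. Levels are given as CPM (a gene's counts scaled to a fixed library total) after TMM scaling. A log2 fold change is cGAS KO minus WT, and SE is its standard error. Values of the 3 libraries of a group are given in the order of their replicate numbers. cGAS KO 2 and WT 3, with STING KO 2, stood apart from the rest. They had 2280 to 4723 genes with 1 to 9 counts against 7096 to 7927 in the other libraries, and are called the libraries of low complexity. Results are given with all 9 libraries in the fit and with those 3 left out, which leaves 2 libraries against 2. WT 3 differed most: ribosomal protein genes took 0.254% of its counts against 0.660% to 0.996% in the other 5 libraries compared. On the first principal component of the 6 libraries, with 58.2% of the variance, WT 3 was at 107.3, cGAS KO 2 at 46.19 and the others below 0. The striatal markers Drd1 and Drd2 were abundant throughout, at 163 to 335 and 117 to 356 CPM, with WT 3 lowest for both. Slc17a7, the vesicular glutamate transporter of cortical neurons, ranged from 47.3 to 823 CPM, with WT 3 highest.

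edgeR called no gene as different between cGAS KO and WT. That does not show that levels were equal, since the targeted gene Cgas was not called either. The biological coefficient of variation (spread between libraries of a group beyond counting error) was 38.8%. Without the libraries of low complexity it was 17.2%. Of 17821 genes tested, 0 were called at an adjusted p under 0.05, which is 0%, and 361 genes (2.03%) had an unadjusted p under 0.05, 186 with a positive and 175 with a negative fold change. Without the libraries of low complexity edgeR again called 0 of 17657 genes (0%), and 742 (4.20%) had an unadjusted p under 0.05, 430 positive and 312 negative. With only cGAS KO 2 and WT 3 left out, and STING KO 2 kept, edgeR called 0 genes and 124 had an unadjusted p under 0.05. DESeq2 called 1 gene of 31889, Baiap3, higher in cGAS KO (0.00314%). limma-voom called 0 genes, and with library quality weights it called 3 higher (0.0168%), Baiap3, Zfpm1 and Lrrc4b, and 1 lower (0.00561%), Robo3. In 713 genes (4.0%) all 3 cGAS KO libraries were above all 3 WT libraries, and in 713 (4.0%) all were below. Below, such genes are said to be separated. The median log2 fold change was -0.01 over the genes tested and 0.00 without the libraries of low complexity, with 48.5% and 49.6% of genes positive. Among 11984 genes with a mean of at least 5 CPM, 17 were over 2-fold higher and 76 over 2-fold lower. Without the libraries of low complexity these numbers were 18 and 25, and the median SE of a log2 fold change was 0.18 in place of 0.27.

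**Figure D1:**
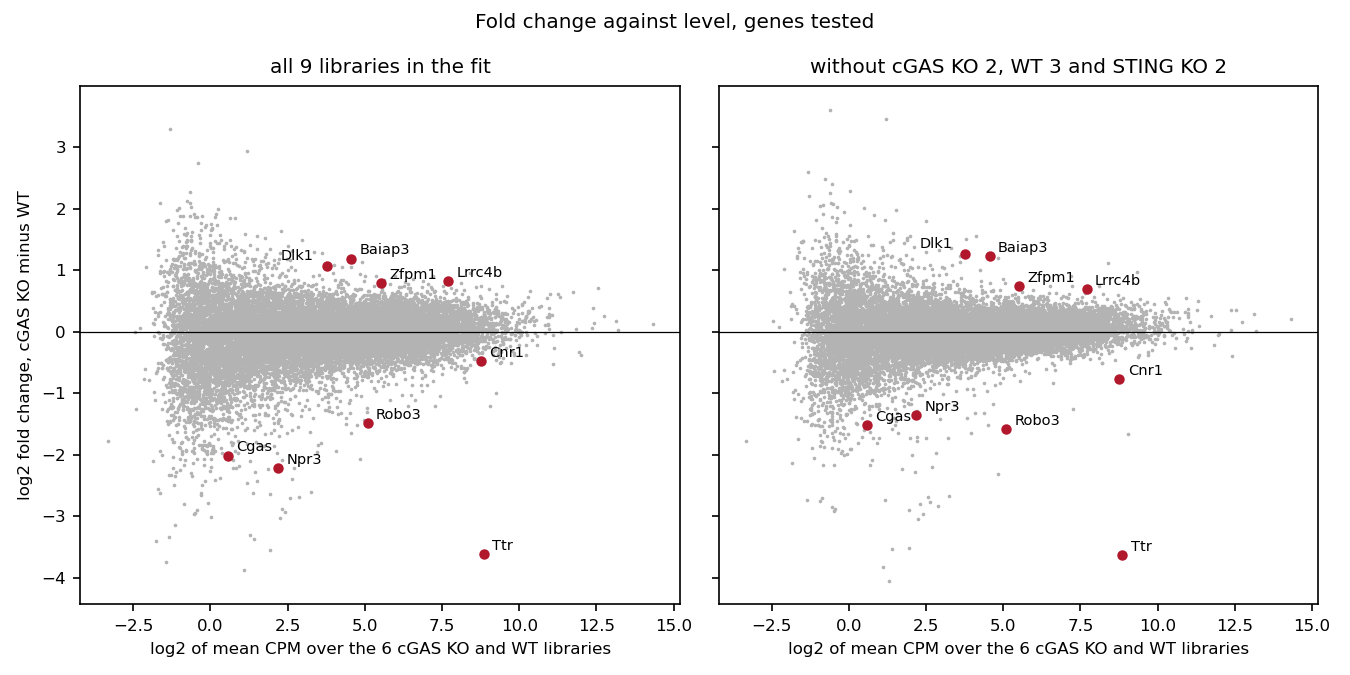
Log2 fold change of cGAS KO minus WT (vertical axis) against the log2 of the mean CPM (horizontal axis) for each gene tested, with all 9 libraries in the fit on the left and without the 3 libraries of low complexity on the right. Red points are named genes, and Baiap3 is at 1.19 and Robo3 at -1.49 in the left panel.

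The targeted gene itself was scarce. Cgas is ENSMUSG00000032344 and lies on the minus strand of chromosome 9 between 78430526 and 78443237 in GRCm38. The 3 cGAS KO libraries had 1.10, 0.377 and 0.262 CPM of it and the WT libraries 1.40, 2.63 and 3.18 CPM, and every cGAS KO library was below every WT library. STING KO libraries had 1.55, 1.045 and 1.45 CPM, so that cGAS KO 1 was above STING KO 2. Its log2 fold change was -2.02 (SE 0.63), or -1.52 (SE 0.61) without the libraries of low complexity, with an edgeR adjusted p of 0.9999 and 0.971. Transcript remained in each cGAS KO library, and the counts span the whole gene, so they cannot show which part of it was edited. Within 1 Mb of Cgas 15 other genes were tested, 7 with a positive and 8 with a negative fold change, and the median was -0.07. None of the 15 was separated, and 0 had an edgeR unadjusted p under 0.05 in either fit. The nearest, Mto1, a mitochondrial tRNA-modifying enzyme, had a log2 fold change of -0.25 (SE 0.19). Eef1a1, the abundant elongation factor that lies 35.2 kb from Cgas, had one of 0.61 (SE 0.33), and 0.30 without the libraries of low complexity.

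**Figure D2:**
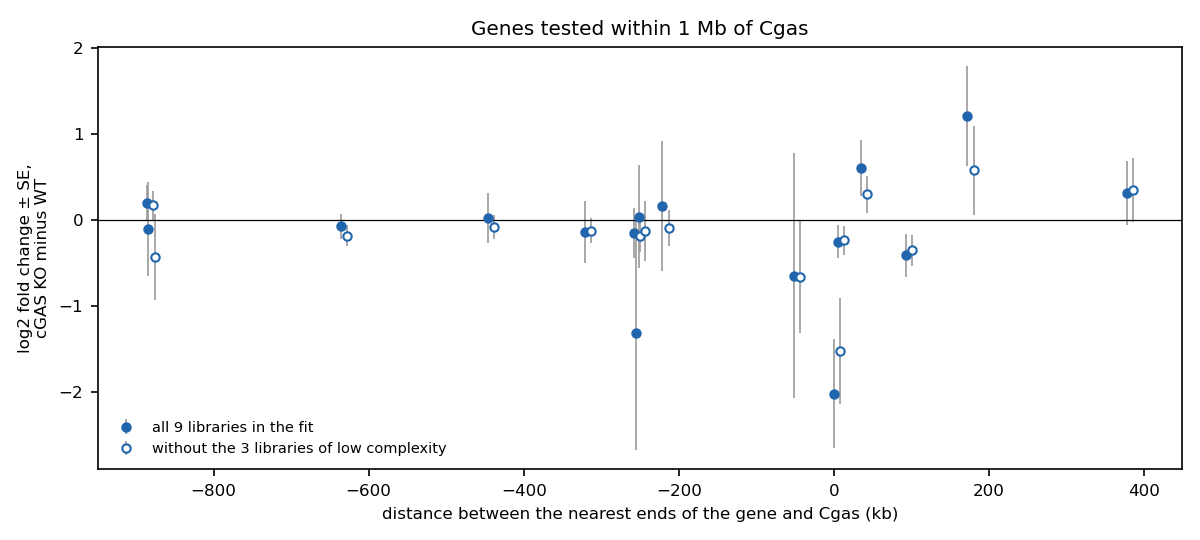
Log2 fold change of cGAS KO minus WT with its SE (bars) against distance from Cgas in kb, which is at 0, for the genes tested within 1 Mb. Filled points are the fit of all 9 libraries, and open points, drawn 8 kb to the right for legibility, are the fit without those of low complexity. Cgas itself is the lowest point at -2.02.

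Other genes of the cGAS-STING pathway overlapped between the groups. Of 19 pathway genes tested, 12 had a positive and 7 a negative fold change, the median was 0.07, and Cgas was the 1 member that was separated. Sting1, the receptor of cGAMP, was at 2.67, 1.66 and 2.75 CPM in cGAS KO against 4.06, 3.01 and 1.34 CPM in WT, groups that overlapped because WT 3 was low. Tbk1, the kinase that STING recruits, was at 48.4, 37.4 and 43.1 CPM against 50.6, 48.8 and 45.1 CPM. Irf3, which TBK1 phosphorylates, was at 24.9, 8.0 and 10.6 CPM against 20.7, 15.4 and 7.71 CPM, a spread within each group as wide as the levels themselves. Enpp1, the enzyme that degrades cGAMP outside cells, was at 7.72, 15.2 and 11.1 CPM against 6.59, 7.20 and 9.34 CPM. The volume-regulated channel subunit Lrrc8a, a route for cGAMP between cells, was at 11.7, 18.8 and 18.4 CPM against 10.5, 11.5 and 13.0 CPM. In these last 2 genes the cGAS KO libraries reached higher, but the groups overlapped. Of 13 genes for nucleases and other clearance of nucleic acids 9 were positive, with a median of 0.07, and 0 were separated. Without the libraries of low complexity 7 were positive, with a median of 0.03.

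Baiap3 had the smallest p of all genes. BAIAP3 is a protein of the Munc13 family that acts in dense-core vesicle traffic. Baiap3 (ENSMUSG00000047507, chromosome 17, 25242659 to 25256364) was at 35.8, 28.7 and 34.3 CPM in cGAS KO. WT libraries held 16.8, 12.9 and 13.4 CPM, and STING KO libraries 28.2, 20.8 and 25.7 CPM. The lowest cGAS KO library was well above the highest WT library, and STING KO lay between. The log2 fold change against WT was 1.19 (SE 0.20), or 1.23 (SE 0.18) without the libraries of low complexity. The edgeR adjusted p was 0.9999 and 0.971 in those fits, DESeq2 gave 0.0115 and limma-voom with quality weights 0.0146. Across alternatives the adjusted p ran from 0.000269 to 1. Against STING KO, Baiap3 had a log2 difference of 0.40 (SE 0.20), with an edgeR unadjusted p of 0.0728.

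The other genes with the smallest p on the higher side had varied roles. Zfpm1, a cofactor of GATA transcription factors (chromosome 8, 122282141 to 122337251), was at 45.0, 66.9 and 62.1 CPM in cGAS KO against 35.1, 28.9 and 36.4 CPM in WT, for a log2 fold change of 0.79 (SE 0.19). Lrrc4b, a postsynaptic adhesion protein (chromosome 7, 44429018 to 44463351), was at 204, 334 and 261 CPM against 149, 138 and 165 CPM, a log2 fold change of 0.82 (SE 0.20). Both were separated, and both kept a similar fold change without the libraries of low complexity, 0.74 and 0.70. Zfp622, a zinc finger protein that acts in ribosome maturation, was at 35.2, 53.5 and 37.8 CPM against 28.7, 22.01 and 16.8 CPM. Frat1, which binds the kinase GSK-3, was at 14.8, 17.6 and 12.8 CPM against 8.31, 9.45 and 6.16 CPM. For Zfp622 and Frat1 the low WT value is that of WT 3, and their log2 fold changes of 0.90 and 0.92 became 0.52 and 0.64 without the libraries of low complexity. Neurl1a, a ubiquitin ligase of neurons, was at 308, 370 and 429 CPM against 226, 253 and 210 CPM. Ccdc85c, Mn1 and Fam171a2 were also separated, with log2 fold changes of 0.66, 0.73 and 0.57. In STING KO each of these 8 genes had a mean between those of WT and cGAS KO, while Fosl2, also among the 10 with the smallest p and described with the immediate early genes, was above cGAS KO. Both knockouts are set against the same WT libraries.

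On the lower side Robo3 led. ROBO3 is a receptor of axon guidance, known for the crossing of commissural axons. Robo3 (ENSMUSG00000032128, chromosome 9, 37415669 to 37433246) was at 23.3, 21.5 and 8.91 CPM in cGAS KO. WT libraries held 42.1, 55.1 and 53.4 CPM, and STING KO libraries 27.3, 36.9 and 30.0 CPM. All 6 knockout libraries were below all WT libraries, with cGAS KO 3 lowest. The log2 fold change in cGAS KO was -1.49 (SE 0.33), and -1.59 (SE 0.37) without the libraries of low complexity. Its adjusted p was 0.9999 by edgeR and 0.0192 by limma-voom with quality weights, its extremes across alternatives being 0.0192 and 1. Npr3, the clearance receptor of natriuretic peptides, was at 1.68, 0.906 and 2.23 CPM against 6.68, 3.27 and 12.6 CPM, and its log2 fold change of -2.21 (SE 0.57) became -1.35 (SE 0.42) without the libraries of low complexity. Pnpt1, a polynucleotide phosphorylase of mitochondria that degrades RNA, was at 18.6, 12.7 and 14.5 CPM against 22.5, 25.8 and 27.2 CPM. In STING KO Pnpt1 was at 22.3, 25.6 and 22.02 CPM, the WT level, and cGAS KO was lower than STING KO by an edgeR log2 difference of -0.61 (SE 0.20, unadjusted p = 0.0131, adjusted p = 1). Gk, glycerol kinase, was at 19.6, 14.6 and 14.1 CPM against 23.4, 25.3 and 33.0 CPM. Gjb6, the astrocyte gap junction protein connexin 30, was at 28.3, 27.9 and 26.4 CPM against 36.0, 47.2 and 41.0 CPM, a log2 fold change of -0.59 (SE 0.17). The cGAS KO libraries of Gjb6 were close together and all below WT, and so were those of STING KO, at 26.3, 23.1 and 27.8 CPM. Myo5c, an unconventional myosin, and the lincRNA Gm40841 were separated too, with log2 fold changes of -1.002 and -0.96.

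**Figure D3:**
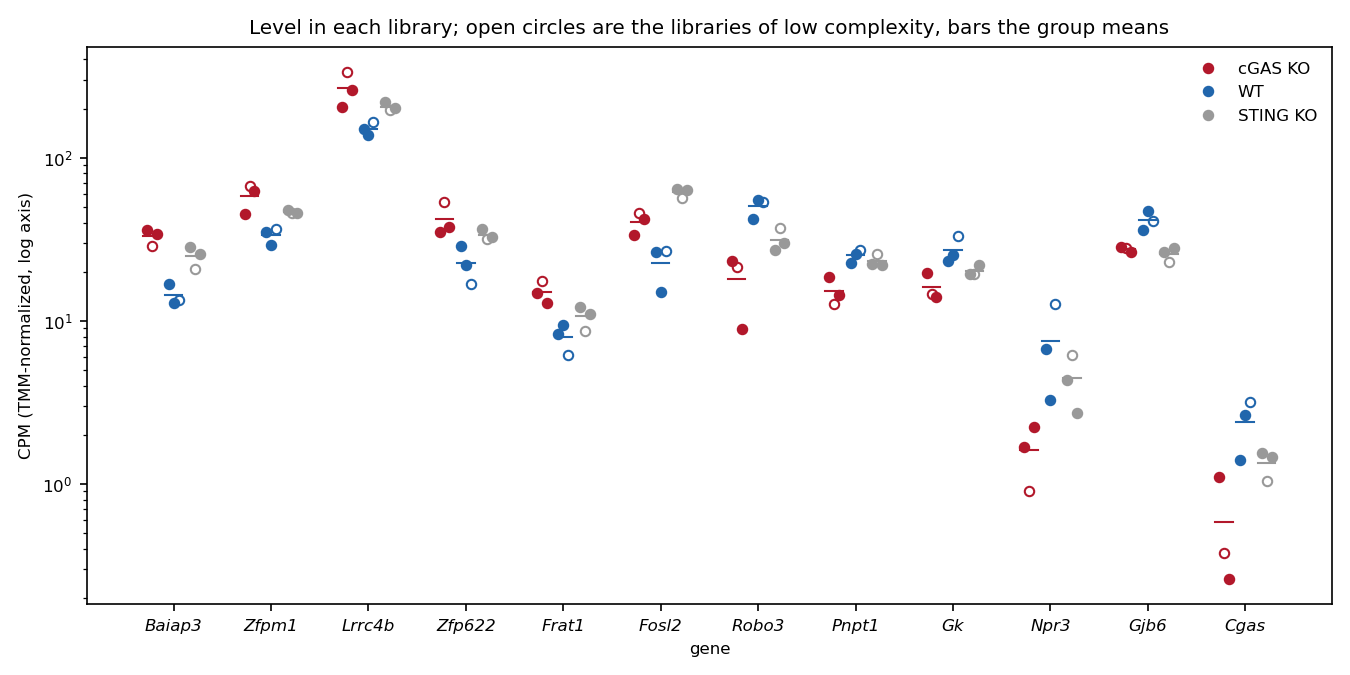
CPM on a log axis in each of the 9 libraries for 12 genes, 6 higher and 6 lower in cGAS KO. Points are libraries (red cGAS KO, blue WT, grey STING KO), open circles are the libraries of low complexity and bars are group means. In each gene shown the red points lie wholly above or wholly below the blue ones.

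Leaving out the libraries of low complexity brought other genes forward. Cnr1, the cannabinoid receptor CB1 of striatal and cortical terminals, was at 311, 455 and 318 CPM in cGAS KO against 500, 577 and 438 CPM in WT. cGAS KO 2 was above WT 3 here, so the groups overlapped. Its log2 fold change was -0.48 (SE 0.30) with all libraries and -0.78 (SE 0.14) without those of low complexity, where the edgeR unadjusted p was 0.000569 and the adjusted p 0.971. In STING KO, Cnr1 was at 342, 682 and 332 CPM, and the high value is again the library of low complexity. Dlk1, an imprinted Notch-like membrane protein, was at 25.1, 14.5 and 15.6 CPM against 8.58, 8.32 and 9.48 CPM and was separated, with a log2 fold change of 1.07 (SE 0.37), or 1.27 (SE 0.24) without the libraries of low complexity. Wfs1, an endoplasmic reticulum protein, was at 195, 121 and 236 CPM against 126, 132 and 96.0 CPM, and was separated only once cGAS KO 2 was left out. Rgs14, a regulator of G protein signalling, was at 85.5, 46.6 and 82.2 CPM against 57.4, 55.3 and 30.1 CPM, with the same pattern. Slc38a2, a neutral amino acid transporter, was at 106, 140 and 106 CPM against 155, 147 and 209 CPM and was separated on the lower side. CT010467.1, annotated as ribosomal RNA, was at 249, 1559 and 304 CPM against 162, 121 and 1432 CPM, so that cGAS KO 2 and WT 3 alone were high. A transcript of this kind is not polyadenylated in the usual way, and its level in the low-complexity libraries is given here as a measure of them.

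Genes that interferon gamma induces had mostly positive fold changes. This interferon induces guanylate-binding proteins, immunity-related GTPases and antigen processing. Of 17 members tested 14 were positive, with a median log2 fold change of 0.49, or 14 and 0.39 without the libraries of low complexity, against -0.01 and 0.00 over all genes. Without WT 3 alone the median was 0.27, and without cGAS KO 3 alone 0.25. The lowest value over the alternatives, 0.126, came from testing only genes with a mean of at least 5 CPM. Of these 17, 5 were separated and higher and 0 lower, beside 4.0% of all genes in each direction. Most members were at a few CPM. Irf8, a transcription factor of microglia and other myeloid cells, was at 7.83, 8.07 and 9.37 CPM in cGAS KO against 6.46, 6.66 and 3.89 CPM in WT. Its log2 fold change was 0.57 (SE 0.29), and 0.39 (SE 0.22) without the libraries of low complexity. Irgm2, an immunity-related GTPase, was at 4.35, 4.45 and 6.75 CPM against 4.02, 4.24 and 2.76 CPM, so that WT 2 was just under cGAS KO 1. Psmb9, an inducible proteasome subunit, was at 1.04, 1.13 and 1.38 CPM against 0.316, 0.483 and 0.141 CPM. Gbp4, a guanylate-binding protein, was at 2.21, 1.89 and 3.01 CPM against 1.76, 1.66 and 1.42 CPM. For Irf8, Irgm2, Psmb9 and Gbp4 WT 3 was the lowest library. Irgm2 overlaps its neighbour Igtp in the annotation and Psmb9 overlaps Tap1, and whether counting used strand is unstated, so these 2 are uncertain. The mean log2 CPM of the list was 1.44, 1.17 and 1.52 in cGAS KO and 1.21, 1.09 and 0.53 in WT, so the groups overlapped at cGAS KO 2. In STING KO it was 1.48, 1.44 and 1.70.

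The promoters of 2 of these genes are shown because both are separated and hold the motifs through which interferons act on promoters. The sequences are the bases before the RefSeq start site (GRCm38.p6), 5′ to 3′ along the gene: for Irf8 chr8:120736108-120736357 and for Irgm2 chr11:58214727-58214976, both on the plus strand and in no annotated exon. Capitals mark matches on either strand to the interferon gamma activated site, TTCNNNGAA, and to the interferon-stimulated response element, which is GAAA, any 2 bases and GAAA again.
Irf8: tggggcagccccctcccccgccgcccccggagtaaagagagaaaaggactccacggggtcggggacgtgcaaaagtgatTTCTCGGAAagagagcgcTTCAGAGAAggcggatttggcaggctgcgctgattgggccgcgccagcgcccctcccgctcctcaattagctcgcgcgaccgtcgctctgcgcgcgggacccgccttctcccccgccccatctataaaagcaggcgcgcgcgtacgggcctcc
Irgm2: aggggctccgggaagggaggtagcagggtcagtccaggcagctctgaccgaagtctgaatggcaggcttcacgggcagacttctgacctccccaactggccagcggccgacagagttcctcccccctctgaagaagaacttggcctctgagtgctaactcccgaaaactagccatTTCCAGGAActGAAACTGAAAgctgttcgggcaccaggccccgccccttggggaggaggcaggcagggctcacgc
Irf8 has 2 matches to the activated site, and 0 to either motif in the window of another of its starts. Irgm2 has 1 match to each motif. Of the 5 separated members 3 have a window, and that of Psmb9 holds 0 matches to either motif. Of the 15 members of the list with a promoter window of 250 bases, 7 hold the activated site and 9 the response element, against 8.13% and 3.46% of 27025 genes. A match describes the sequence and was not measured as a binding site.

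Type I interferon response genes, which cells use against viruses, did not lean one way under all alternatives. Of 28 tested 11 were positive, beside 48.5% of all genes, with a median of -0.12, and -0.14 without the libraries of low complexity. Without WT 1 the median turned to 0.195. The separated members were Ifit3 on the higher side and Rtp4, Stat2 and Ifi44 on the lower. Ifit3, an interferon-induced antiviral protein, was at 5.22, 6.87 and 6.42 CPM in cGAS KO against 4.97, 4.40 and 1.98 CPM in WT. Stat2, the signal transducer of type I interferon, was at 28.8, 22.04 and 28.4 CPM against 32.5, 29.4 and 29.2 CPM, a narrow gap. Ifi44 and Rtp4 were near 1 to 2 CPM in WT, and their log2 fold changes were -0.56 (SE 0.51) and -0.68 (SE 0.53). Classical markers of an ongoing response were scarce in both groups: Isg15 was at 0.302 to 1.74 CPM in cGAS KO against 1.18 to 2.57 CPM in WT. Of 15 genes of MHC class I presentation 10 were positive, with a median of 0.17 (0.09 without the libraries of low complexity), and 0 were separated. B2m, the invariant subunit shared by all class I molecules, was at 41.1, 19.1 and 26.7 CPM against 40.5, 43.3 and 8.91 CPM.

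Inflammatory mediators of injured brain were near the limit of detection in both groups. Tnf and Cxcl1 had 0 counts in all 6 libraries, which allows up to 0.141 to 0.212 CPM per library (3 counts, counting error only). Ccl2 had 1 count in cGAS KO 3 and 0 in the other 5. Il1b had 1, 9 and 2 counts in cGAS KO and 1, 3 and 3 in WT, and the reactive astrocyte gene Lcn2 had 4, 2 and 0 counts against 5, 4 and 4. Of 14 NF-kB and cytokine genes tested 9 were positive, with a median of 0.13, which turned to -0.04 without the libraries of low complexity. Nfkbiz, an NF-kB cofactor, was the separated member, at 6.56, 6.04 and 5.11 CPM against 7.54, 8.16 and 8.14 CPM. Apoptosis, pyroptosis and necroptosis genes had a median of 0.13 over 18 members (0.02 without the libraries of low complexity) and 0 separated. No difference in these mediators was detectable at this depth.

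The listed genes of the cytosolic ribosome had positive fold changes whose size followed WT 3. The list also holds the elongation factor Eef1a1. All 40 members tested were positive with a median of 0.48. Without the libraries of low complexity 39 were positive and the median was 0.26, and without WT 3 alone it was 0.10. Of the 40, 6 were separated, all higher, beside 4.0% of all genes in each direction. Rpl3 of the large subunit was at 404, 496 and 548 CPM in cGAS KO against 345, 340 and 194 CPM in WT, for a log2 fold change of 0.72 (SE 0.24), or 0.48 (SE 0.18) without the libraries of low complexity. Rps19 of the small subunit was at 99.3, 75.5 and 96.8 CPM against 70.3, 64.8 and 28.2 CPM. WT 3 was far below the other libraries for Rps19, and cGAS KO 2 was the lowest of its group. The list's mean log2 CPM was 7.25, 6.80 and 7.27 in cGAS KO and 7.11, 6.90 and 5.31 in WT. Of 27 translation factors 21 were positive with a median of 0.24 (0.11 without the libraries of low complexity and 0.097 without WT 3). Of these factors 4 were separated and higher and 2 lower, beside the same 4.0%. Eef2, the elongation factor that moves the ribosome along, was at 1156, 1639 and 1633 CPM against 1021, 1021 and 962 CPM, and its fold change of 0.56 (SE 0.20) was 0.45 (SE 0.19) without the libraries of low complexity. Eif5, which acts in start codon selection, was separated on the lower side at 199, 204 and 210 CPM against 234, 263 and 242 CPM. All 15 mitochondrially encoded genes tested were positive with a median of 0.39, which was 0.014 without WT 3, and 0 were separated. The part that library complexity has in the ribosomal and mitochondrial values was not tested beyond these fits.

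Immediate early genes, which neurons transcribe within minutes of activity, were the 1 list of 42 whose mean level did not overlap between the groups. Among single genes 4.0% were separated in each direction, so 1 such list of 42 does not mark it out. The list's mean log2 CPM was 4.64, 4.41 and 4.46 in cGAS KO and 4.29, 4.27 and 4.14 in WT, a narrow gap. In STING KO it was 5.71, 4.26 and 5.41. Of 25 members 18 were positive, with a median of 0.20, and of 0.22 without the libraries of low complexity. Separated were 4 higher members, Fosl2, Nr4a3, Junb and Egr3, and 1 lower, Dusp1, beside the same 4.0% of all genes in each direction. Fosl2, a subunit of the AP-1 transcription factor, was at 33.4, 45.7 and 42.1 CPM in cGAS KO. WT libraries held 26.4, 14.9 and 26.7 CPM, and STING KO libraries 64.4, 56.2 and 63.0 CPM. Its 3 groups did not overlap, with a log2 fold change of 0.83 (SE 0.24) for cGAS KO against WT. cGAS KO was below STING KO by -0.60 (SE 0.24), with an edgeR unadjusted p of 0.0316 and an adjusted p of 1. Nr4a3, an orphan nuclear receptor, was at 29.1, 39.6 and 44.8 CPM against 21.4, 10.8 and 26.8 CPM in WT, for a log2 fold change of 0.95 (SE 0.34), or 1.20 (SE 0.32) without the libraries of low complexity. Junb, another AP-1 subunit, was at 58.0, 54.7 and 50.2 CPM against 39.96, 30.6 and 16.1 CPM. Fos and Arc, the most used markers of recent activity, were level: Fos was at 8.30, 5.43 and 6.62 CPM against 5.24, 7.84 and 7.08 CPM, and Arc at 91.8, 77.6 and 80.8 CPM against 97.3, 75.8 and 80.3 CPM. In STING KO, Arc was at 356, 136 and 289 CPM, above every cGAS KO library. Dusp1, a phosphatase that ends MAP kinase signals, was at 21.9, 14.6 and 18.01 CPM in cGAS KO against 23.2, 22.8 and 24.1 CPM in WT.

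The promoters of Nr4a3 and Junb are shown as 2 separated members whose start regions differ in the number of copies of TGACG, the core of the cAMP response element, through which CREB acts. Printed are the bases before the RefSeq start and before any annotated exon, 5′ to 3′ along the gene, chr4:48045055-48045152 on the plus strand and chr8:84978749-84978998 on the minus strand (GRCm38.p6). Capitals mark TGACG on either strand.
Nr4a3: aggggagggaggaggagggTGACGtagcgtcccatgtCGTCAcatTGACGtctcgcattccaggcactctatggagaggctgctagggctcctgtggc
Junb: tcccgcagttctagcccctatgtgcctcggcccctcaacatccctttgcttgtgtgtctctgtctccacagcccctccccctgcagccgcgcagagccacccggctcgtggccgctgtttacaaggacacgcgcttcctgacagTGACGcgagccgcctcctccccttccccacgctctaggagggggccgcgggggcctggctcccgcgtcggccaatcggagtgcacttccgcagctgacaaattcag
Fosl2, the separated member with the smallest p, has 0 copies of TGACG in its window of 250 bases. Nr4a3 holds 3 copies of TGACG in the 98 bases shown, and Junb 1 in its 250 bases. Of 20 members with a window, 15 hold TGACG, against 19.8% of 27025 genes. The full palindrome TGACGTCA was in 2 of the 20, Btg2 and Dusp1, against 1.77% of genes. Dusp1, with the full site, is the member that was separated on the lower side.

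Among 18 circadian clock genes, 4 were separated on the higher side and 1 on the lower, beside 4.0% of all genes in each direction. The clock is a loop in which CLOCK and ARNTL (BMAL1) switch on Per, Cry and Bhlhe genes through the E-box CACGTG, and their products repress it. Of 18 members 11 were positive, with a median of 0.08, and of 0.13 without the libraries of low complexity. Separated were Bhlhe41, Per1, Tef and Cry2 on the higher side and Arntl on the lower. Bhlhe41, a repressor of the loop, was at 60.9, 65.1 and 86.8 CPM in cGAS KO against 49.7, 49.1 and 24.9 CPM in WT, for a log2 fold change of 0.78 (SE 0.27), or 0.58 (SE 0.17) without the libraries of low complexity. Per1, also a repressor, was at 198, 233 and 222 CPM against 186, 144 and 188 CPM. In STING KO, Per1 was at 258, 233 and 263 CPM, also above every WT library. Arntl was at 25.5, 22.7 and 22.6 CPM against 34.6, 31.2 and 28.2 CPM, a log2 fold change of -0.41 (SE 0.16), or -0.45 (SE 0.15) without the libraries of low complexity. Cry2, a repressor, and Tef, an output transcription factor, had log2 fold changes of 0.27 (SE 0.18) and 0.33 (SE 0.18). Per2, Nr1d1, Nr1d2, Dbp and Hlf overlapped between the groups. The labels do not state the hour at which tissue was taken, so genotype and time of day cannot be told apart. Bhlhe41 and Per1 are shown because each holds 1 E-box before its start, in capitals below, from chr6:145865559-145865670 on the minus strand and chr11:69098699-69098947 on the plus strand (GRCm38.p6, up to the first annotated exon).
Bhlhe41: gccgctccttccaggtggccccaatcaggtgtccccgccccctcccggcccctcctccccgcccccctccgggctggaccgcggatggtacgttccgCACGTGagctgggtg
Per1: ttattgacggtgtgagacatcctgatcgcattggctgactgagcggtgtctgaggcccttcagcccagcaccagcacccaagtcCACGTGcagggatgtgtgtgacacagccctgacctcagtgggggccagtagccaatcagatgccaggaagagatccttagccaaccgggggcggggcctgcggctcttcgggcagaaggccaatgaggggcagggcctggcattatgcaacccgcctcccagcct
Of 16 clock genes with a window 5 hold the E-box, against 6.86% of genes. Tef is also among those 5, while Arntl and the higher member Cry2 are not. The window of another start of Per1 holds 0 matches.

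Markers of spiny projection neurons leaned higher with all libraries and less so without those of low complexity. Of 20 shared markers 19 were positive with a median of 0.24, and 13 with a median of 0.06 without the libraries of low complexity. Their mean log2 CPM was 8.59 in WT 3 and 9.16 to 9.51 in the other 5 libraries. Direct pathway genes had a median of 0.25 and 0.06 in the same order over 10 members, and indirect pathway genes 0.24 and 0.16 over 9. Without WT 3 alone the medians were 0.029 for shared, 0.02 for direct and 0.154 for indirect pathway markers. Ppp1r1b, which encodes the dopamine effector DARPP-32, was at 1385, 656 and 1286 CPM in cGAS KO against 1403, 1108 and 200 CPM in WT. The value of WT 3 is far below the rest. Rarb, a retinoic acid receptor of spiny neurons, and Gpr6, a receptor of the indirect pathway, were the separated members on the higher side, and Eya1, a transcription cofactor listed with the direct pathway, was separated on the lower. Cortical glutamatergic markers had a median of -0.39 over 18 members, and of -0.05 without the libraries of low complexity. Without WT 3 alone this median turned to 0.24.

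Glial markers differed little as groups. Of 20 microglial genes 15 were positive, with a median of 0.17 (0.20 without the libraries of low complexity), which turned to -0.14 without WT 3. Cx3cr1, the fractalkine receptor of microglia, was separated at 63.1, 81.3 and 98.7 CPM in cGAS KO against 60.1, 55.2 and 56.9 CPM in WT, for a log2 fold change of 0.50 (SE 0.18). P2ry12, another receptor of resting microglia, was at 36.1, 30.2 and 41.6 CPM against 37.5, 47.6 and 24.6 CPM, and Trem2 at 15.03, 4.68 and 9.37 CPM against 12.7, 11.4 and 5.66 CPM. The list as a whole was low in cGAS KO 2 and WT 3, at a mean log2 CPM of 3.62 and 3.40 against 4.72 to 4.88 in the other 4. Of 16 astrocyte genes 6 were positive with a median of -0.08, and Gjb6 and Fgfr3 were separated on the lower side. Fgfr3, a growth factor receptor, was at 97.9, 50.5 and 80.6 CPM against 112, 105 and 99.2 CPM. Gfap, the filament protein that astrocytes make on injury, was at 84.0, 131 and 98.0 CPM against 121, 103 and 64.5 CPM. Vim, also a filament protein of reactive astrocytes, was separated and higher, at 45.5, 45.1 and 59.6 CPM against 43.6, 34.8 and 20.4 CPM. Serpina3n, a protease inhibitor of the same list, was separated and lower, at 4.58, 2.87 and 4.98 CPM against 5.24, 6.55 and 5.59 CPM. Of 18 oligodendrocyte and myelin genes 16 were positive with a median of 0.17, and 5 with a median of -0.17 without the libraries of low complexity. The sign of this list thus turned with 2 libraries of the comparison.

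Choroid plexus transcripts followed 1 library, WT 1. All 14 markers had negative fold changes, with a median of -2.34, and 0 were separated. Ttr, the transthyretin of choroid plexus, was at 164, 4.15 and 42.0 CPM in cGAS KO against 2487, 78.5 and 14.8 CPM in WT. Its log2 fold change of -3.62 (SE 1.82) turned to 0.59 (SE 1.36) without WT 1. Without WT 1 the median of the list was 0.47. Endothelial and mural genes had a median of 0.02 over 20 members, with Vtn higher and Slco1a4 lower among the separated. Slco1a4, an anion transporter of the blood-brain barrier, was at 89.8, 78.5 and 107 CPM against 116, 124 and 124 CPM, a log2 fold change of -0.40 (SE 0.18). Slc13a3, a dicarboxylate carrier counted here with meningeal markers, was at 15.2, 14.5 and 18.6 CPM against 10.8, 10.3 and 12.4 CPM, a log2 fold change of 0.53 (SE 0.23). Red cell genes had a median of 0.34 over 8 members, and of -0.03 without the libraries of low complexity. Whether admixed tissue bears on the separated genes was not tested.

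**Figure D4:**
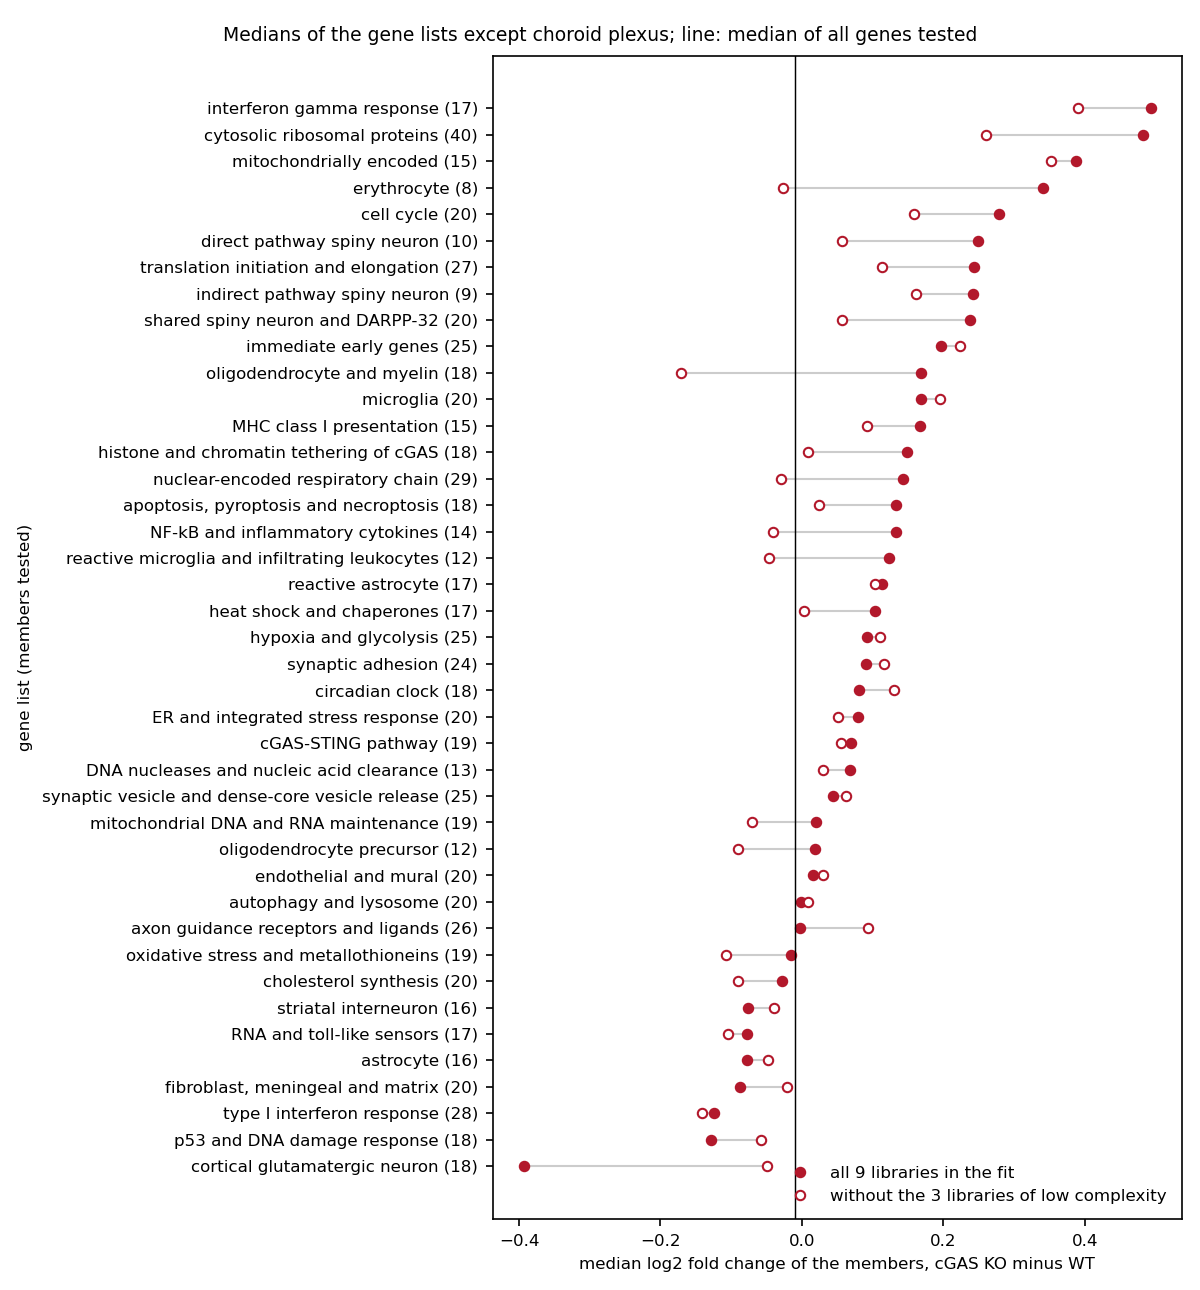
Median log2 fold change of cGAS KO minus WT for 41 gene lists, with the members tested in parentheses. The choroid plexus list, with medians of -2.34 and -2.49 in the 2 fits shown, is not drawn. Filled points are the fit of all 9 libraries, open points the fit without the 3 libraries of low complexity, and the vertical line is the median of all genes tested (-0.01). The interferon gamma response is at 0.49 and 0.39 and the mitochondrially encoded genes at 0.39 and 0.35, while oligodendrocyte genes cross from 0.17 to -0.17.

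**Figure D5:**
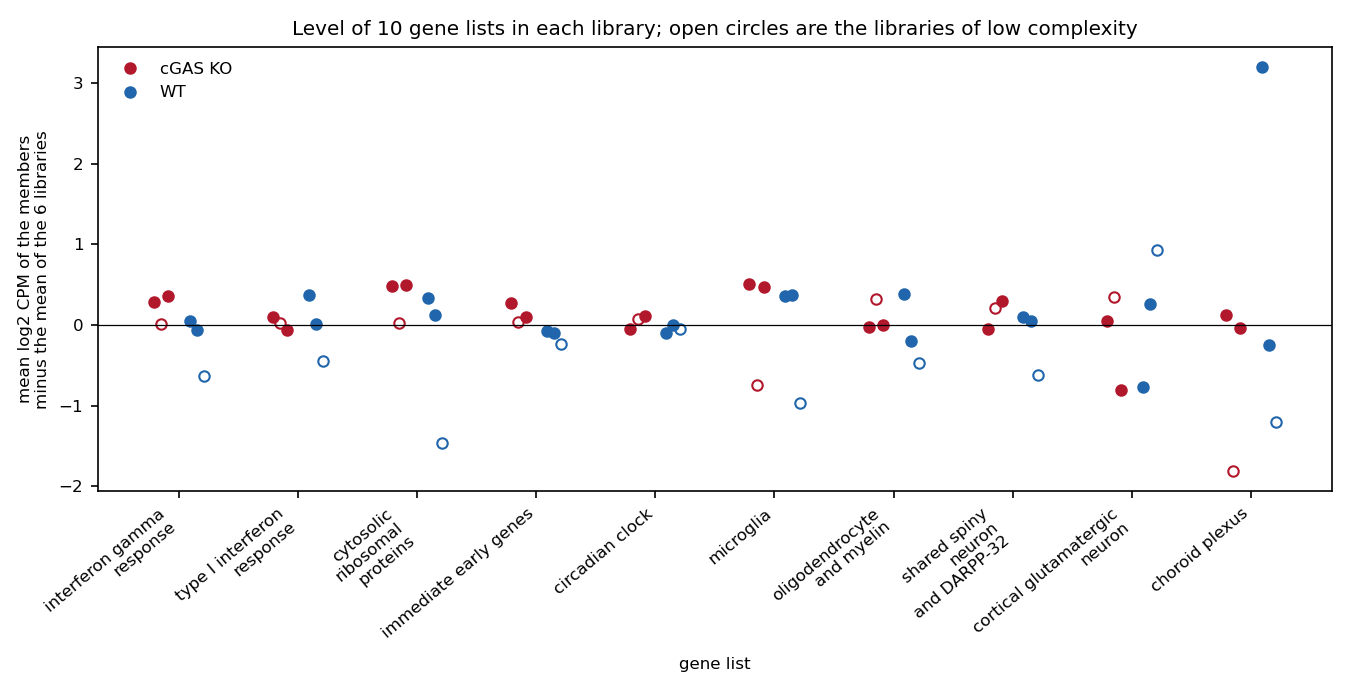
Mean log2 CPM of the members of 10 gene lists in each cGAS KO (red) and WT (blue) library, minus the mean of the 6 libraries. Open circles are cGAS KO 2 and WT 3. The immediate early genes are the list without overlap, and WT 1 stands highest for the choroid plexus.

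Separated synaptic genes are given beside the 4.0% of all genes separated in each direction. Of 24 synaptic adhesion genes 16 were positive with a median of 0.09, and 2 were separated, Lrrc4b and Nlgn3, both higher. Nlgn3, a neuroligin, was at 72.9, 81.2 and 73.8 CPM in cGAS KO against 61.5, 65.2 and 53.1 CPM in WT, for a log2 fold change of 0.34 (SE 0.15). Baiap3 was the separated member of 25 genes of synaptic and dense-core vesicle release, whose median was 0.04. Of 26 genes of axon guidance 12 were positive, with a median of -0.003. Without the libraries of low complexity 19 were positive, with a median of 0.09, and without WT 3 alone the median was 0.26. Robo3 and Ntn4 were separated and lower, Ntn1 and Efnb2 higher. Ntn1, the guidance cue netrin-1, was at 19.9, 18.8 and 28.8 CPM against 16.1, 17.9 and 18.6 CPM, so that the nearest libraries were almost level. Of 16 interneuron genes 7 were positive, and Lhx6, a transcription factor of interneurons, was separated at 19.8, 19.4 and 23.8 CPM against 17.7, 15.9 and 16.9 CPM.

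Lists of metabolism and stress are read against the same 4.0% of all genes in each direction. Of 19 genes that maintain mitochondrial DNA and RNA 10 were positive, and 7 without the libraries of low complexity. Pnpt1 and its helicase partner Supv3l1 were separated and lower. Supv3l1 was at 19.0, 14.8 and 20.9 CPM in cGAS KO against 24.1, 21.3 and 22.9 CPM in WT. Its log2 fold change was -0.32 (SE 0.26), or -0.19 (SE 0.16) without the libraries of low complexity. Unlike Pnpt1, Supv3l1 was also below every WT library in STING KO, at 19.65, 10.5 and 17.6 CPM. Top1mt, the mitochondrial topoisomerase, and Polg2, an accessory subunit of the mitochondrial DNA polymerase, were separated and higher. Of 19 genes of oxidative stress and metallothioneins 9 were positive, and 6 without the libraries of low complexity. Mt2, a metallothionein, was at 2.38, 2.79 and 2.16 CPM against 1.08, 0.805 and 0.0707 CPM, a log2 fold change of 1.86 (SE 0.70), or 1.25 (SE 0.39) without the libraries of low complexity. Keap1, the brake on NRF2, was at 59.6, 57.6 and 59.8 CPM against 48.9, 40.8 and 45.7 CPM, with a log2 fold change of 0.39 (SE 0.17) and 0.41 (SE 0.14) in the same order. The cGAS KO libraries of Keap1 differed by little and all stood above WT. Of 20 genes of cholesterol synthesis 7 were positive. Sc5d, a sterol desaturase, was at 59.4, 44.0 and 52.2 CPM against 71.3, 72.8 and 65.9 CPM, a log2 fold change of -0.43 (SE 0.16) and -0.37 (SE 0.13). Idi1 was also separated and lower, and Dhcr7, which makes the last step to cholesterol, higher at 33.0, 39.0 and 32.4 CPM against 29.1, 26.0 and 27.0 CPM. Heat shock genes had a median of 0.10, and hypoxia and glycolysis genes one of 0.09, with 0 members separated. Without the libraries of low complexity these medians were 0.003 and 0.11. Of genes of the endoplasmic reticulum stress response only Xbp1, a transcription factor of that response, was separated, higher.

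By gene class, lincRNA genes and genes of the TEC class (annotated models that await experimental evidence) were separated on the lower side in larger numbers than on the higher. Of 14560 protein-coding genes 626 were separated and higher and 548 lower, shares of 4.30% and 3.76%. Of 638 lincRNA genes 18 were higher and 45 lower, and of 599 TEC genes 4 were higher and 38 lower. The median of the TEC class was -0.25, and -0.02 without the libraries of low complexity. For lincRNA genes these medians were -0.18 and -0.12. Together with antisense and processed-transcript genes, these noncoding classes took 2.54% of the counts of WT 3 and 1.37% to 1.81% in the other 5 libraries. By chromosome, 87 of 1337 genes on chromosome 11 were higher (6.51%) and 33 lower (2.47%), beside 4.0% of all genes in each direction. On chromosome 13 these were 13 (1.86%) and 46 (6.59%) of 698. These 2 are named because they had the largest higher and lower share of the numbered chromosomes. Their median log2 fold changes were 0.039 and -0.065, and other chromosomes also leaned one way. On chromosome 9, which carries Cgas, 42 of 1044 were higher and 51 lower.

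A direct test set cGAS KO against STING KO, the knockouts of neighbouring steps of the pathway. By edgeR 0 of 17821 genes were called, and 258 had an unadjusted p under 0.05. Without the libraries of low complexity edgeR called 3 of 17657, Arc, Gm28438 and the mitochondrially encoded mt-Nd3, a fit added after the data were seen. Arc, which neurons make on activity, was lower in cGAS KO by a log2 difference of -1.90 (SE 0.18, edgeR adjusted p = 0.0327).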

How the data were processed

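RNA from the striatum of 3 cGAS KO, 3 WT and 3 STING KO libraries was measured. The authors deposited raw read counts per Ensembl gene ID, 1 file per library. Per the submitters' processing notes, HISAT2, featureCounts and mm10 were used. Settings, annotation and strandedness are unstated there. Of 54532 IDs, 54495 matched GENCODE M21, which gave symbols and positions.

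All 9 libraries entered 1 fit with a coefficient per group in edgeR 4.0.16 (R 4.3.3): filterByExpr, TMM scaling, the quasi-likelihood F test and Benjamini-Hochberg adjustment over all genes tested, called at 0.05. SE is the log2 fold change divided by the square root of F. Totals of 14129021 to 21286775 counts set a floor of 3 counts, 0.141 to 0.212 CPM. DESeq2 1.42.0, limma 3.58.1, other scalings and filters, a replicate block, low complexity as a covariate and leaving out libraries were alternatives. Named genes were Cgas and Sting1, every gene called by any tool, the 10 with the smallest p in each direction in either fit, tested genes within 1 Mb of Cgas, and in each list the 2 most abundant members and up to 4 whose groups did not overlap, by smallest p. Other list members were named after their values were seen. The comparison and the gene lists were chosen with earlier results of these data known. The script was tested on simulated data. Promoter sequences are from RefSeq (GRCm38.p6), with motifs searched on both strands.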

Additional observations from a re-analysis of the deposited data

How the results depend on the processing

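edgeR called 0 genes higher and 0 lower under its other filters and scalings and with each of the 6 cGAS KO and WT libraries left out in turn (0 to 0). DESeq2 called 1 gene higher without a filter and 1 on the genes edgeR tested, and limma-voom with quality weights called 3 higher and 1 lower. With those weights 3867 of 17821 genes had a limma-voom unadjusted p under 0.05. With low complexity as a covariate edgeR called 0 genes, but 1407 had an unadjusted p under 0.05 and the smallest adjusted p was 0.224. The number of small unadjusted p-values thus depended on how the libraries of low complexity were handled. Between cGAS KO and STING KO the number called was 0, and 3 without the libraries of low complexity, an alternative added after seeing the data. Scaled by library size only, 106 genes with an unadjusted p under 0.05 were positive and 255 negative, against 186 and 175 with TMM. The deviations of same-numbered libraries from their group means had correlations of 0.427, -0.406 and -0.188. cGAS KO 2 and WT 3, which stood apart, carry different numbers, so these correlations cannot show whether libraries were paired. The numbers were not taken to pair them. With the replicate block edgeR called 0 higher and 0 lower, and 211 genes had an unadjusted p under 0.05. Of 67 genes, 4 changed sign under an alternative; the cause was not tested. With each of these 6 left out in turn, the log2 fold change of Sting1 ran from -0.58 (without WT 3) to 0.12 (without WT 1), that of Coch from -0.556 (without WT 3) to 0.044 (without WT 1), that of Ttr from -5.22 (without cGAS KO 1) to 0.59 (without WT 1) and that of CT010467.1 from -1.03 (without cGAS KO 2) to 2.31 (without WT 3). Of 42 list medians, 12 kept their sign under all 17 alternatives run on lists, 9 changed sign without the libraries of low complexity and 17 without WT 3. Genes near 1 CPM rest on few counts, which limits their precision.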
